A study of Mus musculus with 12 samples.

Results

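The comparison described here is the effect of Gpr15l deletion that is common to the full colon and to LPMC. That label usually stands for mononuclear cells of the lamina propria, a leukocyte fraction freed from the gut wall. All 12 of the 12 libraries of the series enter it. The 6 libraries labelled GPR15L KO were set against the 6 labelled wild type (WT), with tissue as an additive term. The fit thus looks for one KO to WT ratio that holds in both tissues. There were 4 groups, WT and KO for each tissue, with 3 libraries apiece. Mice of every group had acute colitis from dextran sulfate sodium (DSS), a polymer that injures the colonic epithelium, so no group without colitis was measured. The KO groups have the genotype Gpr15l-/-, and no other allele is named. Strain, age, sex, the way the allele was made and the number of animals behind a library are not given in the labels. P-values therefore rest only on how far libraries spread around the fit, and part of that spread may be technical. In the shared fit this spread also takes in any difference of the KO effect between the tissues. Libraries held from 45.4 to 140.7 M counts (M, 1e6).

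Gpr15l is a small secreted protein made by epithelia of the gut and skin, and it is a ligand of Gpr15. Gpr15 is a G protein-coupled receptor on T cells, including regulatory T cells, and it helps bring them to the large intestine. In DSS colitis the epithelium is broken, bacteria meet the immune system, and neutrophils, monocytes and T cells enter while the epithelium mounts an antimicrobial and repair response.

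By edgeR's quasi-likelihood test, 2 of 20989 genes passed an adjusted p of 0.05, or 0.00953% of those tested. The deleted gene fell, at 0.00476% called lower. Its neighbour Cdhr1, whose cadherin-like protein is known from photoreceptors, rose, at 0.00476% called higher. Both calls were made again in each of the 12 fits that left out 1 library. Every other difference below missed the threshold and is given as values. At an unadjusted p under 0.05, 7.79% of genes passed, 817 higher (3.89%) and 819 lower (3.9%). In 197 genes, or 0.939%, the libraries of the genotypes did not overlap in either tissue and parted in the same direction. Of these, 116 (0.553%) were higher and 81 (0.386%) were lower in KO. In a further 48 genes (0.229%) they parted in opposite directions. Taken singly, colon groups did not overlap in 14.1% of genes and LPMC groups in 7.52%. Colon fitted alone gave 1 call (0.00518%, the lower Gpr15l), and LPMC fitted alone gave 2 (0.0103%), Cdhr1 higher (0.00515%) and Gpr15l lower (0.00515%). The plot of all genes shows how far the called pair stood from the rest.

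**Figure D1:**
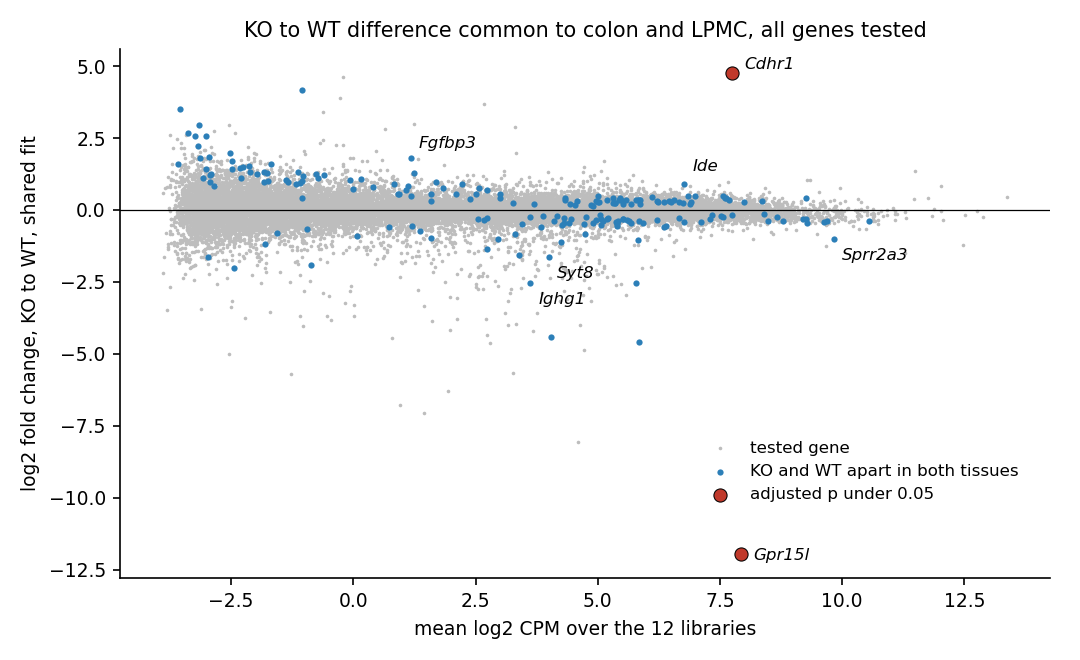
KO to WT log2 fold change of the fit shared by both tissues (vertical axis) against mean log2 CPM over the 12 libraries (horizontal axis), 1 point a gene. The 2 genes with an adjusted p under 0.05 are red, and the 197 genes whose KO and WT libraries do not overlap in both tissues, the called pair among them, are blue or red.

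Libraries differed far more by tissue than by genotype. Tissue took a median of 40.5% of a gene's variance in log2 CPM (CPM, counts per 1e6), and genotype took 3.32%, or 7.15% of the variance within a tissue. LPMC libraries held marker genes of leukocytes and of other cells. The pan-leukocyte gene Ptprc was at 76.5 to 297 CPM in LPMC and 4.11 to 124 CPM in colon. The T cell gene Cd3e was at 3.22 to 12.4 and 0.261 to 2.27 CPM. The other leukocyte markers, Cd79a, Itgam, Lyz2 and S100a8, overlapped between the tissues, with S100a8 at 6.49 to 95.1 CPM in LPMC and 8.0 to 62.1 CPM in colon. Yet the epithelial genes Epcam (964 to 1410 CPM) and Krt8 (3200 to 4460 CPM) were high in every LPMC library, beside 1330 to 2430 and 5400 to 11000 CPM in colon. Fibroblast collagen Col3a1 reached 2160 CPM in LPMC, while the glial gene S100b was at or near 0 there. Epithelial genes can therefore be measured in both tissues, but their mix differed. Krt20 was at 130 to 440 CPM in LPMC and 1280 to 3300 CPM in colon, while Cdh1 and Car1 overlapped between the tissues. Whether the same epithelial cells were sampled in both was not tested. On the second principal component, colon KO replicate 2, LPMC KO replicate 2 and LPMC WT replicate 3 stood apart, at -85.03, -63.54 and -66.03. Values that moved by over 1.5 times without one of them, or without another library, are given with and without it or by their range.

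The deleted gene is annotated as 2610528A11Rik (ENSMUSG00000096001). In GRCm38 it spans chromosome 14, 37102140 to 37114022, minus strand. TMM-scaled CPM were 970, 363 and 614 in colon WT and 0.194, 0.228 and 0.134 in colon KO. They were 292, 327 and 363 in LPMC WT and 0.0291, 0.0729 and 0.132 in LPMC KO. All 6 KO libraries lay far below all 6 WT libraries, so no library went against its label. KO libraries still held 4 to 20 counts each. The ratio of mean CPM, WT to KO, was 3502 in colon and 4204 in LPMC. The shared log2 fold change was -11.95 (SE 0.39), with an adjusted p of 1.14e-08. Between the tissues the log2 difference was -0.33 (SE 0.63). EdgeR's interaction test gave it a p of 0.614. Per length, Gpr15l stood at 784 ± 368 RPKM (CPM per kilobase of exon; SD, n = 3) in colon WT and 395 ± 43.3 RPKM (SD, n = 3) in LPMC WT. Its mean RPKM ranked 46 in colon WT and 109 in LPMC WT among 20977 genes with a length.

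The receptor gene Gpr15 on chromosome 16 was scarce. Colon WT libraries held 40, 8 and 12 counts, and colon KO libraries 7, 0 and 36. LPMC WT libraries held 205, 143 and 53 counts, and LPMC KO libraries 230, 37 and 70. The genotypes overlapped in both tissues, and the shared log2 fold change was -0.89 (SE 0.57, edgeR adjusted p = 0.721), or -0.57 without colon WT replicate 1. One end of Gpr15 overlaps the end of Cpox, so some reads may be shared.

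Cdhr1 (ENSMUSG00000021803) lies on the same strand of chromosome 14, from 37077857 to 37098347. The annotated ends of both genes are 3.79 kb apart, and Gpr15l is transcribed toward Cdhr1. Colon WT libraries held 28.2, 10.6 and 15.2 CPM of Cdhr1, and colon KO libraries 529, 1170 and 381. LPMC WT libraries held 7.28, 5.78 and 9.74 CPM, and LPMC KO libraries 147, 156 and 121. The lowest KO library was thus at 121 CPM and the highest WT library at 28.2 CPM, whatever the tissue. The shared log2 fold change was 4.75 (SE 0.38), a 26.8-fold rise, with an adjusted p of 4.65e-04. The ratio of mean CPM was 38.5 in colon and 18.6 in LPMC. The log2 difference between the tissues was -1.04 (SE 0.60, adjusted p = 0.902 by edgeR's interaction test). Per length, Cdhr1 went from 4.15 ± 2.11 to 160 ± 96.5 RPKM (SD, n = 3) in colon and from 1.75 ± 0.462 to 32.7 ± 4.26 RPKM (SD, n = 3) in LPMC. Its rank among 20977 genes moved from 7832 to 293 in colon and from 11133 to 1705 in LPMC. In WT, Gpr15l had the higher per-length level of the pair in both tissues, and in KO, Cdhr1 had it. Fitted in colon alone, Cdhr1 missed edgeR's threshold (5.25, adjusted p = 0.439).

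**Figure D2:**
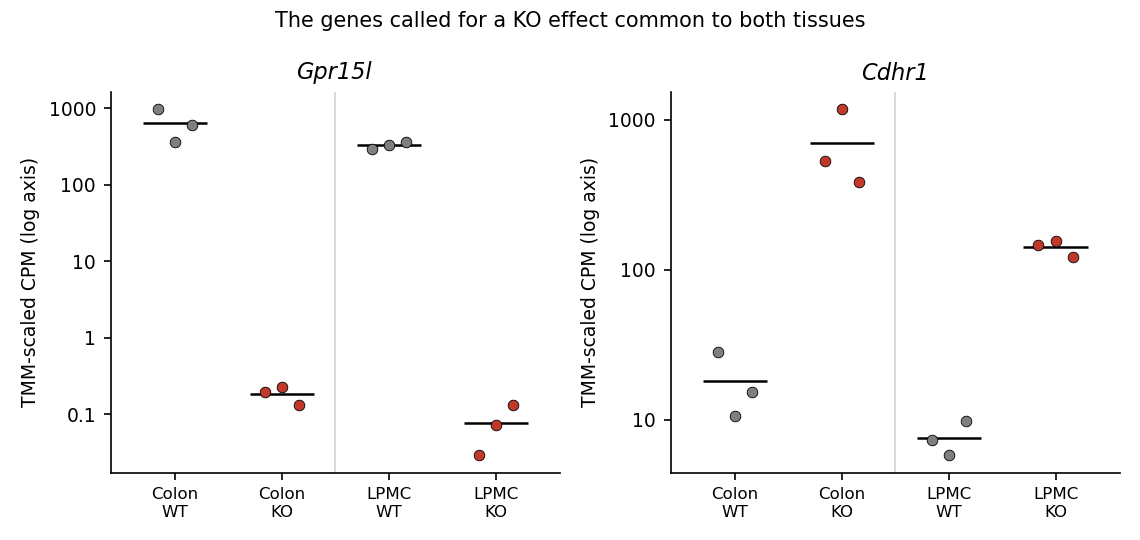
TMM-scaled CPM (log axis) of Gpr15l and Cdhr1 in each of the 12 libraries, grey for WT and red for KO, with a bar at each group's mean of 3. Gpr15l is at 292 to 970 CPM in WT and at most 0.228 CPM in KO, and Cdhr1 is at 5.78 to 28.2 CPM in WT and 121 to 1170 CPM in KO.

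The sequences before the start sites of this pair are shown because these neighbours are the only genes edgeR called. They are the 250 bases upstream of the RefSeq start in GRCm38.p6, 5′ to 3′ on the minus strand, with TATAAA in capitals where it occurs. The windows are chr14:37110102-37110351 for Gpr15l and chr14:37098348-37098597 for Cdhr1. Both genes had an entry in the RefSeq table.
Gpr15l: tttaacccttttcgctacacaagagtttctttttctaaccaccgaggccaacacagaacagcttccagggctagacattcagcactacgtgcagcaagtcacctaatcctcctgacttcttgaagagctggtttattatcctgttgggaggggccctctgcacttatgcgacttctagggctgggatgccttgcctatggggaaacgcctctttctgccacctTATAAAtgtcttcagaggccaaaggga
Cdhr1: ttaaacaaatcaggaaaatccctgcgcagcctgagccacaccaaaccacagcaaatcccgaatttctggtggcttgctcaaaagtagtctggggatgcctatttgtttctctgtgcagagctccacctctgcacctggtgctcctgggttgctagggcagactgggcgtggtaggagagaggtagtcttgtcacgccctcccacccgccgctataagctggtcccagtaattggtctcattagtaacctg

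The Gpr15l window holds TATAAA 1 time, on the sense strand, starting 27 bases before the start of the gene. The Cdhr1 window does not hold these letters on either strand. Among 32851 RefSeq promoter windows of this length, 4063 (12.4%) hold the motif on at least 1 strand. The RefSeq starts of the pair lie 11.8 kb apart. The GENCODE bounds of Gpr15l begin farther upstream, at 37114022, so the Gpr15l window lies inside the annotated gene.

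Of 22 annotated genes within 1 Mb of Gpr15l, 5 were tested: the called pair, Lrit2, Ccser2 and Ghitm. Of these, 3 had an unadjusted p under 0.05 (7.79% of all genes did), namely Lrit2 and the called pair itself. Lrit2, a gene for a leucine-rich membrane protein next to Cdhr1, held 0.157, 0 and 0.043 CPM in colon WT and 0.248, 0.995 and 0.295 CPM in colon KO. It was at 0 in 5 of 6 LPMC libraries, so it bears on colon alone, where WT and KO did not overlap. Its log2 fold change was 2.94 (SE 0.95, edgeR adjusted p = 0.609). Ccser2 was at 0.11 (SE 0.12, adjusted p = 0.833) and Ghitm, a mitochondrial membrane protein gene, at 0.13 (SE 0.12, adjusted p = 0.811). Without colon KO replicate 2 they were at 0.18 and 0.03.

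Among the other higher genes, those of lowest p were Fgfbp3 and Ide, both on chromosome 19. Fgfbp3 (36917550 to 36919615) encodes a secreted protein that binds fibroblast growth factors, and Ide (37268743 to 37337852) encodes insulin-degrading enzyme. Fgfbp3 stood at 0.652, 1.07 and 0.588 CPM in colon WT and 3.78, 5.32 and 2.97 CPM in colon KO. LPMC values were 1.26, 1.22 and 1.21 CPM in WT and 2.42, 3.01 and 3.17 CPM in KO. The genotypes did not overlap in either tissue, and the log2 fold change was 1.80 (SE 0.28), or 3.48-fold. It missed edgeR's threshold (adjusted p = 0.158) and passed DESeq2's (adjusted p = 5.65e-07). The difference was 2.38 in colon and 1.22 in LPMC on the log2 scale, with an unadjusted edgeR interaction p of 0.024.

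Ide stood at 45.9, 74.0 and 66.2 CPM in colon WT and 134, 85.5 and 125 CPM in colon KO. In LPMC the values were 77.8, 85.9 and 106 CPM in WT and 158, 185 and 169 CPM in KO. Again neither tissue showed overlap. The log2 fold change was 0.91 (SE 0.14), or 1.87-fold, with an adjusted p of 0.158 by edgeR and 1.04e-04 by DESeq2. It was nearly the same in colon (0.87) and LPMC (0.92). The start sites of the pair are 418.2 kb apart. Btaf1, a TATA-binding protein regulator gene between them, was at 0.63 (SE 0.17, adjusted p = 0.609), and colon KO replicate 2 (36.1 CPM) lay within its WT range of 31.4 to 40.9 CPM. Other genes between Fgfbp3 and Ide were closer to 0, with Cpeb3 at 0.20 and March5 at -0.08. Tnks2, beyond Fgfbp3, was at 0.13. Without colon KO replicate 3, Cpeb3 was at 0.05 and Tnks2 at 0.07. Of 23 genes tested within 1 Mb of Ide, edgeR called 0, DESeq2 called 2 and voom 0, and 3 had an unadjusted p under 0.05. Over all genes DESeq2 called 0.172%, and 7.79% had such a p. The 2 were Fgfbp3 and Ide themselves, and the 3 were these and Btaf1. The window was drawn around a gene of low p, so its counts are no test of a cluster. Btaf1, Cpeb3, March5 and Tnks2 were looked up after Fgfbp3 and Ide had been seen.

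The remaining higher genes by p all had an edgeR adjusted p of 0.609. The scavenger receptor gene Cd163l1 was at 1.19 (SE 0.29) and held 8.09, 5.68 and 4.45 CPM in LPMC WT and 10.1, 17.7 and 23.1 CPM in LPMC KO. In colon its genotypes overlapped, at 0.543 to 0.906 CPM in WT and 0.718 to 1.63 CPM in KO. F5, which encodes coagulation factor V, was at 1.29 (SE 0.34), with LPMC values of 2.42, 1.90 and 2.52 CPM in WT and 4.73, 3.6 and 10.7 CPM in KO. It was at most 0.582 CPM in colon. Others were well expressed in every library and differed little. Ulk1, a kinase that starts autophagy, was at 32.4 to 34.6 CPM in colon WT and 39.7 to 48.7 in colon KO, and at 62.8 to 78.4 CPM in LPMC WT and 82.4 to 88.3 in LPMC KO (log2 fold change 0.35, SE 0.09). Epg5, which acts in autophagosome fusion, was at 0.49 (SE 0.12). Both were without overlap in both tissues. Of 14 autophagy regulators looked up after these values were seen, Ulk1 and Epg5 included, 9 were positive and 5 negative. Their median was 0.02. The zinc finger genes Zfp236 (0.41, SE 0.10), Hivep1 (0.51, SE 0.14) and Zfp704 (0.60, SE 0.16) came next. Zfp704 was at 0.97 in colon and 0.22 in LPMC (edgeR interaction test, adjusted p = 0.902).

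On the lower side, the lowest p after the deleted gene belonged to Sprr2a3 on chromosome 3, a small proline-rich protein of the cornified envelope that injured gut epithelium also makes. It stood at 1950, 3200 and 1910 CPM in colon WT and 1230, 1210 and 1060 CPM in colon KO. In LPMC it stood at 88.0, 94.3 and 62.1 CPM in WT and 43.7, 36.6 and 39.9 CPM in KO. Levels were far higher in colon than in LPMC, and the difference between genotypes was -1.02 in colon and -1.03 in LPMC. The shared value was -1.02 (SE 0.15, adjusted p = 0.140 by edgeR and 6.27e-06 by DESeq2). Sprr2a1 (-0.65, SE 0.19) and Sprr2a2 (-0.72, SE 0.21) are near-identical copies, so reads may be divided between the 3 genes and the values are uncertain. Of 11 tested members of the Sprr family, looked up after Sprr2a3 and counting it, 9 were negative, with a median of -0.68.

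The serine protease gene Prss27 on chromosome 17 (24038144 to 24045954) had the next lowest p among genes with a mean log2 CPM of 0 or more. It stood at 21.6, 18.2 and 15.1 CPM in colon WT and 12.5, 7.73 and 7.32 CPM in colon KO. LPMC values were 1.99, 2.56 and 2.83 CPM in WT and 1.21, 1.41 and 1.01 CPM in KO. No KO library reached a WT library of its tissue, and the log2 fold change was -1.01 (SE 0.18, adjusted p = 0.384 by edgeR and 1.75e-04 by DESeq2). Prss22, a related protease gene with a start site 40 kb away, was at -1.57 (SE 0.37), from 32.1, 47.2 and 15.7 CPM in colon WT to 10.9, 13.3 and 5.30 CPM in colon KO. In LPMC it was at most 0.410 CPM. Kremen2, 292.3 kb from Prss27 on the same side, was at -0.51 (SE 0.12). It overlaps 9530082P21Rik, whose reads may be shared. Between Kremen2 and Prss22, Prss41 was at -1.29 (SE 0.48), Prss32 at -0.07 (SE 0.20) and the splicing factor gene Srrm2 on the positive side at 0.42 (SE 0.12), the last without overlap in either tissue. Of 74 genes tested within 1 Mb of Prss27, edgeR called 0, DESeq2 3 and voom 0, and 12 had an unadjusted p under 0.05. Over all genes DESeq2 called 0.172%, and 7.79% had such a p. The 3 were Prss27, Prss22 and Kremen2, which are also among the 12. This window too was drawn around a gene of low p, so its counts are no test of a cluster.

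Syt8, a synaptotagmin-family gene, had a log2 fold change of -1.64 (SE 0.32, edgeR adjusted p = 0.506). It stood at 25.2, 62.7 and 43.2 CPM in colon WT and 23.8, 7.08 and 21.6 CPM in colon KO, and at 2.43, 2.51 and 1.44 CPM in LPMC WT and 0.444, 0.535 and 0.645 CPM in LPMC KO. The colon groups parted narrowly, by 25.2 against 23.8 CPM. Bglap3, an osteocalcin-related gene, was at -0.83 (SE 0.17, adjusted p = 0.542), with 21 to 26.9 CPM in colon WT and 8.63 to 15.2 CPM in colon KO. Afp, the alpha-fetoprotein gene, was at -1.93 (SE 0.33, adjusted p = 0.233), but at no more than 1.60 CPM in any library. DESeq2 called these 3 genes.

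**Figure D3:**
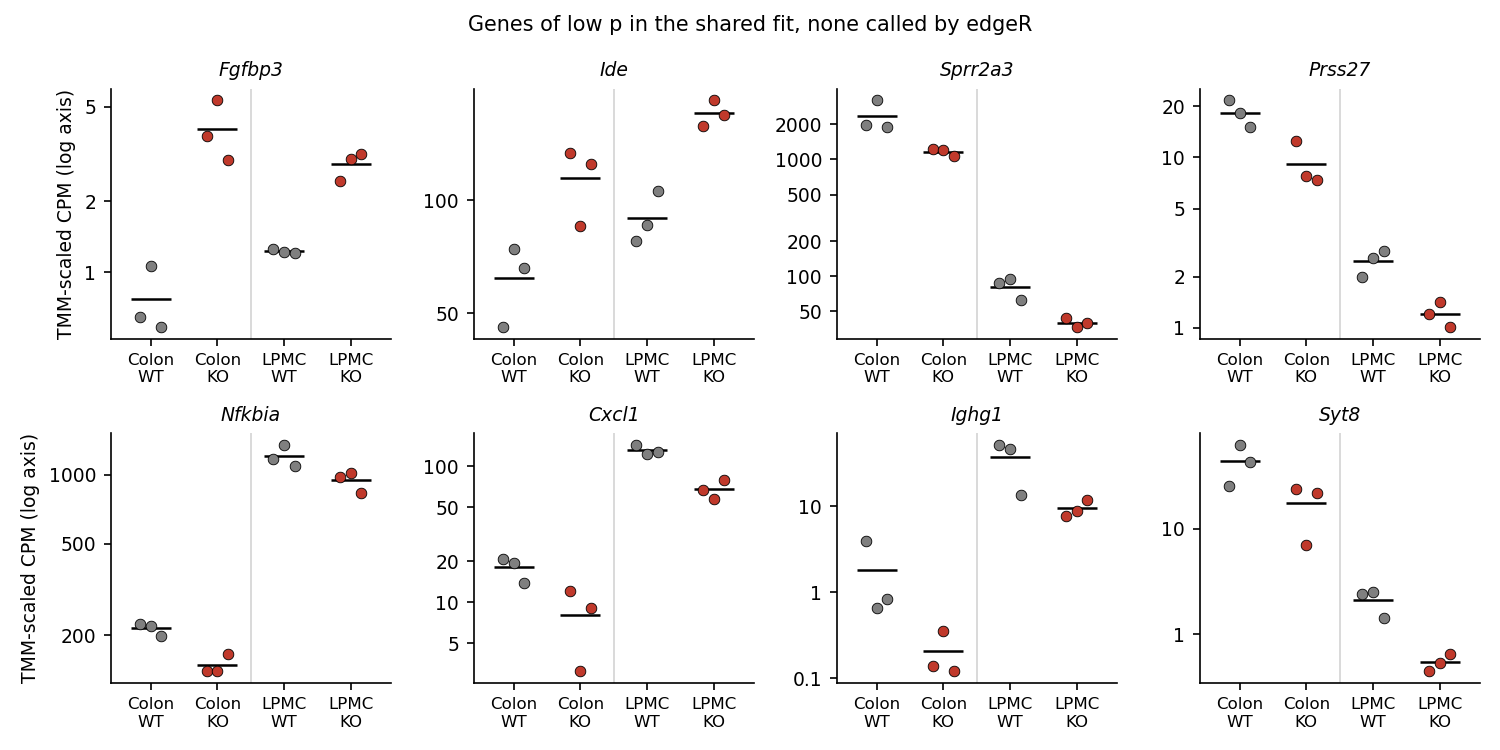
TMM-scaled CPM (log axis) in each library of 8 genes of low p in the shared fit, grey for WT and red for KO, with a bar at each group's mean of 3. In each panel KO and WT libraries part in the same direction in colon and in LPMC, and none of the 8 passes edgeR's threshold (adjusted p 0.140 to 0.609).

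Nfkbia, the NF-kB inhibitor that NF-kB itself induces, stood at 224, 220 and 198 CPM in colon WT and 139, 140 and 165 CPM in colon KO. In LPMC the values were 1170, 1350 and 1090 CPM in WT and 977, 1020 and 831 CPM in KO. The genotypes parted in both tissues by a small margin. The shared value was -0.44 (SE 0.10, adjusted p = 0.609 by edgeR and 0.0182 by DESeq2). Of 11 genes of NF-kB feedback looked up after Nfkbia and counting it, 9 were negative, with a median of -0.28. Negative members included Nfkbiz (-0.31, SE 0.13) and Nfkbib (-0.29, SE 0.13, or -0.19 without colon WT replicate 2). The median of the 11 was -0.26 in colon and -0.02 in LPMC.

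Cxcl1, a chemokine that draws neutrophils, stood at 20.9, 19.5 and 13.8 CPM in colon WT and 12, 3.10 and 9.10 CPM in colon KO. In LPMC it stood at 144, 123 and 127 CPM in WT and 67.1, 57.5 and 79.4 CPM in KO. Again the groups did not overlap, and the log2 fold change was -1.05 (SE 0.25, edgeR adjusted p = 0.609). Cxcl2, a chemokine for the same receptor, was at -0.67 (SE 0.46) and Cxcl5 at -1.06 (SE 0.67). WT and KO overlapped in LPMC for Cxcl2 and in both tissues for Cxcl5. The chemokine gene Ccl9 was on the other side, at 0.54 (SE 0.24, adjusted p = 0.635). The cytokine gene Il23a was at -1.05 (SE 0.41), and Tnf at -0.56 (SE 0.24). For Tnf the difference lay in colon, where WT libraries held 21.3 to 56.4 CPM and KO libraries 17.4 to 19.8 CPM. In LPMC they held 218 to 261 and 176 to 278 CPM. Without colon WT replicate 2, Tnf was at -0.32. Without both KO libraries numbered 2, Cxcl2 was at -0.23 and Cxcl5 at -0.55. The metallothionein genes Mt2 (-1.11, SE 0.27) and Mt1 (-0.66, SE 0.24), which bind zinc, were lower too, Mt2 without overlap. Mt1 was at -0.40 without colon WT replicate 3. Both were chosen after their values were seen, and Mt2 overlaps Gm45774.

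Antibody transcripts were frequent among the genes that DESeq2 called and edgeR did not. Of the 25 genes it called lower (0.119% of those tested), 12 were immunoglobulin variable segments, and it called 11 higher (0.0524%). Such segments were 197 of the 20989 genes tested. Of DESeq2's 36 calls (0.172%), 22 were without overlap in both tissues, beside 0.939% of all genes. The calls and the overlap come from the same counts, so neither is support for the other. Ighg1, the constant region of IgG1, stood at 3.98, 0.650 and 0.831 CPM in colon WT and 0.140, 0.359 and 0.120 CPM in colon KO. LPMC values were 52.2, 45.9 and 13.5 CPM in WT and 7.67, 8.83 and 11.9 CPM in KO. The groups parted in both tissues, though LPMC WT replicate 3 came close to the KO libraries, and the log2 fold change was -2.54 (SE 0.54, adjusted p = 0.609 by edgeR and 8.98e-04 by DESeq2). All 7 heavy chain constant regions tested, Ighg1 among them, were negative in the shared fit. Their median was -1.53, made of -3.71 in colon and 0.99 in LPMC. Their mean level in colon WT libraries ran from 0.25 to 4.33 (log2 CPM). Ighm, the IgM constant region, held 393 CPM in colon WT replicate 1 but 3.41 and 10.2 CPM in replicates 2 and 3. A median of the constant regions without colon WT replicate 1 was not taken. Of 197 variable segments tested, 150 were negative, with a median of -1.37, and 134 with a median of -0.92 without colon WT replicate 1. That library was rich in B cells and plasma cells, as given next. Segments of one family share sequence, so their counts are uncertain. Constant regions and segments were grouped after Ighg1 had been seen.

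The gene lists were read for a difference in the same direction in both tissues. In 28 lists of cell types and functions, 398 genes were listed and 395 tested. By edgeR 0 of them were called, beside 0.00953% of all genes, DESeq2 called 1 and voom 0. At an unadjusted p under 0.05, 7.85% passed (9 higher, 22 lower), near the 7.79% of all genes. Median log2 fold changes ran from -1.94 to 0.63, beside 0.00786 for all genes tested. Of all genes tested, 49.0% were negative. In 15 of the 28 lists the colon and LPMC medians had opposite signs, in 9 both were negative and in 4 both were positive. With 1 library left out at a time, the interferon, mast cell and goblet cell medians stayed within 1.5 times of their values in all 12 fits, and every other median moved by more in at least 1 fit. In whole tissue RNA, fewer cells of a type and less RNA per cell cannot be told apart.

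**Figure D4:**
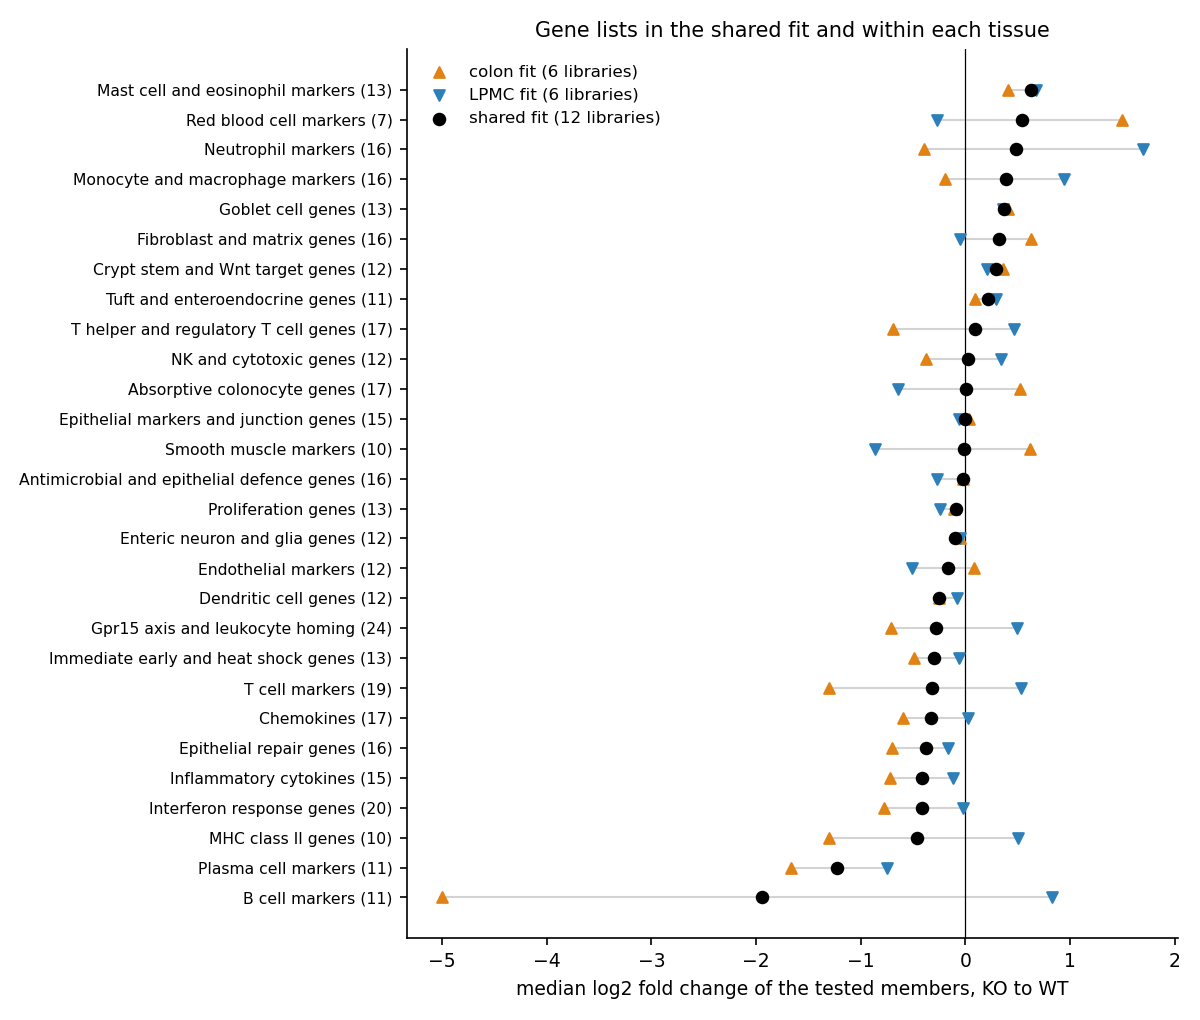
Median KO to WT log2 fold change of each gene list in the shared fit (black circles), in colon alone (orange triangles pointing up) and in LPMC alone (blue triangles pointing down), with the number of tested members in brackets. The grey line joins the medians of the tissues, which lie on opposite sides of 0 in 15 of 28 lists, such as T cell markers (-1.30 and 0.53).

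Genes that read out the Gpr15 axis were examined first. Of 24 tested genes for leukocyte homing, 17 were negative and 7 positive, with a median of -0.28. The median was -0.71 in colon and 0.49 in LPMC, and 0.19 without colon WT replicate 1 (range -0.48 to 0.19 with 1 library left out). Madcam1, the vessel ligand for gut-homing integrin, was at -1.16 (SE 0.52, adjusted p = 0.635), with LPMC values of 11.7, 7.46 and 2.67 CPM in WT and 1.63, 0.838 and 3.83 CPM in KO. Ccl20, the epithelial ligand of Ccr6, was at -0.97 (SE 0.45, adjusted p = 0.640) and held 29.2, 39.5 and 11.4 CPM in LPMC WT and 15.2, 9.71 and 7.91 CPM in LPMC KO. The receptor gene Ccr10, carried by cells that home to the gut and skin, was at -0.66 (SE 0.41). For each of these 3 genes WT and KO overlapped in both tissues.

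Lymphocyte lists moved apart between the tissues. Of 19 T cell markers 17 were negative, with a median of -0.32, but -1.30 in colon and 0.53 in LPMC. Trac, the T cell receptor alpha constant region, shows this: colon WT held 4.60, 1.86 and 1.63 CPM and colon KO 1.04, 0.718 and 1.52. LPMC WT held 19.2, 17.0 and 14.6 CPM, and LPMC KO 35.2, 8.14 and 25.7. Colon values were lower in every KO library, while LPMC KO libraries lay on both sides of WT. The T cell median was 0.06 without colon WT replicate 1, and 0.05 without both KO libraries numbered 2. T helper and regulatory T cell genes had a median of 0.09 (-0.69 and 0.47), and NK and cytotoxic genes 0.03 (-0.38 and 0.34). With 1 library left out, these ranged from -0.14 to 0.21 and from -0.12 to 0.20. Of the 17 T helper and regulatory T cell genes tested, 9 were positive and 8 negative. The cytokine gene Il22 was at -1.43 (SE 0.74, edgeR adjusted p = 0.657). Il13, the member of lowest p, was at 1.03 (SE 0.51, edgeR adjusted p = 0.645), but at no more than 1.29 CPM in any library.

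All 11 B cell markers were negative, with a median of -1.94, and that value rested on a single library. Cd79a, a part of the B cell receptor, stood at 171, 0.465 and 2.85 CPM in colon WT and 3.34, 0.473 and 0.823 CPM in colon KO. Without colon WT replicate 1 the B cell median was 0.50. In LPMC it was 0.83, against -5.00 in colon. All 10 antigen-presenting MHC class II genes were negative as well. Their median was -0.46, with -1.30 in colon and 0.50 in LPMC, and -0.19 without colon WT replicate 1.

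Plasma cell markers were among the lists with the same sign in both tissues. Of 11 tested, 10 were negative, and the median was -1.23 (-1.67 in colon, -0.75 in LPMC). Lower at an unadjusted p under 0.05 were 4 (36.4%, beside 3.9% of all genes). Igha, the IgA constant region, stood at 610, 183 and 308 CPM in colon WT and 151, 55.3 and 131 CPM in colon KO. In LPMC the values were 17500, 18000 and 6340 CPM in WT and 2060, 5380 and 17300 CPM in KO. Colon groups parted, while LPMC KO replicate 3 lay within the WT range. The log2 fold change was -1.23 (SE 0.53, adjusted p = 0.619). Jchain, which joins IgA chains, was at -1.24 (SE 0.55), and Mzb1, an antibody-folding factor, at -2.14 (SE 0.87), or -0.88 without colon WT replicate 1. The list's median was -0.48 without colon WT replicate 1 and -0.78 without both KO libraries numbered 2.

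The neutrophil and monocyte lists were positive in the shared fit, with medians of opposite sign in the tissues. Of 16 neutrophil markers 15 were positive, with a median of 0.48, made of -0.39 in colon and 1.70 in LPMC. S100a8, a calprotectin subunit, held 33.5, 62.1 and 26.9 CPM in colon WT and 38.7, 8 and 54.8 CPM in colon KO. LPMC WT held 13.9, 6.49 and 20.4 CPM, and LPMC KO 95.1, 10.5 and 64.9. KO libraries numbered 2 were low in each tissue, and without both the neutrophil median was 1.08. The exception was Ly6g, a surface marker of neutrophils, at -0.68 (SE 0.27, adjusted p = 0.609). Colon WT held 426 to 583 CPM of it and colon KO 247 to 338, but LPMC held only 1.45 to 6.67 CPM. S100a8 held 8 to 62.1 CPM in colon and 6.49 to 95.1 CPM in LPMC, so Ly6g did not follow it across the tissues. Which cells carried Ly6g was not tested. Ly6g was at -0.43 without both KO libraries numbered 2. Of 16 monocyte and macrophage markers 15 were positive, with a median of 0.39 (-0.19 in colon, 0.94 in LPMC), with the scavenger receptor gene Cd163 at 1.81 (SE 0.74, adjusted p = 0.609), or 1.15 without LPMC KO replicate 1. Without LPMC KO replicate 1 the medians of the neutrophil and the monocyte lists were 0.20 and 0.22, and without colon KO replicate 2 they were 0.89 and 0.66. Dendritic cell genes had a median of -0.25 (-0.41 to -0.10 with 1 library left out), and 0.02 without both KO libraries numbered 2.

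Mast cell and eosinophil markers had the highest median of the 28 lists, 0.63, with 0.41 in colon and 0.68 in LPMC. It stayed between 0.52 and 0.74 in the fits that left out 1 library. Of 13 tested, 11 were positive and 2 passed an unadjusted p of 0.05. The negative members were Cma1 (-1.25, SE 0.98) and Prg2 (-1.05, SE 0.63), with WT and KO overlapping in both tissues. Cma1 reached 21.8 CPM in colon WT, and Prg2 6.74 CPM in LPMC KO. The list's mean level was low, at -1.26 to -0.96 in colon and 0.21 to 1.5 in LPMC (log2 CPM). Single members stood higher, such as Kit at 71.7 to 153 CPM and Mcpt1 at 7.88 to 22.4 CPM in LPMC. Mcpt4, a mast cell protease, held 0.0241, 0.0465 and 0.115 CPM in colon WT and 0.0861, 0.359 and 0.228 CPM in colon KO. In LPMC it held 1.22, 1.21 and 0.585 CPM in WT and 1.67, 1.14 and 3.71 CPM in KO. The groups overlapped in each tissue, and the log2 fold change was 1.39 (SE 0.46, adjusted p = 0.609). Kit, the stem cell factor receptor of mast cells and other cells, was at 0.77 (SE 0.25), with 4.18 to 11.4 CPM in colon WT and 15.2 to 18.8 CPM in colon KO, but overlap in LPMC.

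All 20 interferon response genes were negative in the shared fit, beside 49.0% of all genes. Of the 20, 5 were lower at an unadjusted p under 0.05 (25.0%, beside 3.9% of all genes). Their median of -0.41 came from colon (-0.78), with LPMC at -0.02. Bst2, which tethers budding viruses, stood at 106, 184 and 93.2 CPM in colon WT and 49.8, 38.2 and 47.2 CPM in colon KO. LPMC WT held 59.3, 54.1 and 35.2 CPM, and LPMC KO 44.5, 28.3 and 42.3. Colon groups were far apart and LPMC groups overlapped. The shared value was -0.94 (SE 0.26, adjusted p = 0.609). Isg15, a ubiquitin-like protein, was at -0.98 (SE 0.33), Ifit3, which binds foreign RNA, at -0.94 (SE 0.33), and Oas1a, which senses it, at -0.39 (SE 0.12). The list's median ran from -0.55 to -0.28 when 1 library was left out. Of 15 inflammatory cytokine genes 14 were negative, with a median of -0.41 (-0.72 and -0.12), or -0.13 without colon WT replicate 1. Of 17 chemokine genes 10 were negative, with a median of -0.33 (-0.60 and 0.03), or 0.03 without colon WT replicate 1.

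Epithelial programmes could be measured in both tissues, though the mix of epithelial genes differed between them, as given above. Of 16 repair genes 14 were negative, with a median of -0.38 (-0.70 in colon, -0.17 in LPMC). Lower at an unadjusted p under 0.05 were 4 (25.0%, beside 3.9% of all genes). The median was -0.21 without colon WT replicate 2. Apart from Sprr2a3, Ly6a, the Sca-1 antigen of regenerating epithelium and of other cells, was at -0.66 (SE 0.19, adjusted p = 0.609). It stood at 2690, 4330 and 2920 CPM in colon WT and 1750, 1890 and 1780 CPM in colon KO, and at 255 to 383 CPM in LPMC WT and 157 to 313 CPM in LPMC KO. Colon groups parted and LPMC groups overlapped. Anxa3 was at -0.23 (SE 0.10). Clu, a chaperone marking revival stem cells, was at -2.01 (SE 0.83), with 366, 10.1 and 24.8 CPM in colon WT and 10.9 to 21.8 CPM in colon KO, and it was -0.62 without colon WT replicate 1.

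Goblet cell genes had medians of the same sign and similar size, 0.37 shared, 0.41 in colon and 0.36 in LPMC, with 11 of 13 positive. Ern2, an endoplasmic reticulum stress sensor of goblet cells, held 25.4, 22.3 and 39.2 CPM in colon WT and 53.8, 42.3 and 58.5 CPM in colon KO. In LPMC it held 95.1, 133 and 160 CPM in WT and 147, 270 and 113 CPM in KO. It parted in colon and overlapped in LPMC. The shared value was 0.64 (SE 0.23, adjusted p = 0.609). Muc2, the main gel-forming mucin, was at 0.82 (SE 0.31), and its highest value in each tissue was in KO replicate 2, at 6030 and 12200 CPM. It was 0.23 without those 2 libraries. Without both KO libraries numbered 2 the list's median was 0.20. Crypt stem and Wnt target genes had a median of 0.29, or 0.16 without colon WT replicate 1, with 10 of 12 positive, including Smoc2 (0.62, SE 0.24) and Lgr5 (1.09, SE 0.52, or 0.67 without colon KO replicate 3). Tuft and enteroendocrine genes had a median of 0.22, or 0.10 without LPMC KO replicate 2 and 0.06 without both KO libraries numbered 2. Epithelial markers and junction genes were at 0.00. Absorptive colonocyte genes were at 0.01 (0.52 and -0.64), and at -0.49 without colon KO replicate 2. Antimicrobial genes were at -0.02, with -0.24 without that library and 0.18 without colon WT replicate 1. The acute phase gene Saa1 was at -0.82 (SE 0.32), with 36.7, 24.6 and 36.4 CPM in LPMC WT and 10.4, 13.6 and 9.58 CPM in LPMC KO, but overlap in colon (872 to 2090 CPM over all 6 libraries).

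Structural and housekeeping lists had smaller medians or opposite ones in the tissues. Fibroblast and matrix genes were at 0.32 (0.63 and -0.05), and at 0.07 to 0.61 when 1 library was left out. Smooth muscle markers were at -0.01 (0.62 and -0.86), endothelial markers at -0.17 (0.08 and -0.51) and neuron and glia genes at -0.10. With 1 library left out, smooth muscle markers ranged from -0.25 to 0.27, endothelial markers from -0.36 to -0.02 and neuron and glia genes from -0.20 to 0.08. Red blood cell markers were at 0.54 (1.5 and -0.27), and at -0.09 without colon KO replicate 1. Of 13 proliferation genes 12 were negative, with a median of -0.09, which ranged from -0.26 to 0.03 with 1 library left out. Of lowest p was Birc5, an inhibitor of apoptosis in dividing cells (-0.55, SE 0.18, adjusted p = 0.609). Immediate early and heat shock genes, which rise when tissue is handled, had a median of -0.30, or -0.13 without colon WT replicate 2, with mean levels of 5.50 to 6.69 in colon and 9.79 to 10.45 in LPMC (log2 CPM). Of 8 Sm proteins of the spliceosome, looked up after Snrpd2 was seen and counting it, 7 were negative and the median was -0.44. Snrpd2 was at -0.60 (SE 0.15), with 104 to 171 CPM in colon WT and 67.8 to 85.8 CPM in colon KO, and 53.9 to 71.0 CPM in LPMC WT and 46.6 to 52.5 CPM in LPMC KO.

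Across genes, KO to WT differences in colon and in LPMC were only loosely related. Over 18059 genes tested in both tissues, 56.4% had the same sign, with Pearson's r of 0.0329 and Spearman's rho of 0.0757. Without Gpr15l and Cdhr1, r was 0.00104. Over the 6328 genes whose mean log2 CPM was 5 or more, 63.0% had the same sign, with r of 0.284 and rho of 0.288. The tissues share no library in these values, but genes are not independent replicates, and whether libraries of the same number came from one animal is not stated. The median size of a difference was 0.295 in colon and 0.145 in LPMC on the log2 scale.

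For a KO effect that differs between the tissues, edgeR's interaction test called 0 of 20989 genes, and 4.69% had an unadjusted p under 0.05. DESeq2 called 3 genes (0.0143%), Clca4b and the unnamed Gm8540 and Gm45694, and voom 0. Clca4b, a member of the calcium-activated chloride channel regulator family, had an LPMC minus colon difference of -1.89 (adjusted p = 0.902). It stood at 2220, 2020 and 2650 CPM in colon WT and 3010, 1860 and 3590 in colon KO, and at 67.9, 56.6 and 66.6 CPM in LPMC WT and 18.9, 17.7 and 26.9 in LPMC KO. LPMC groups were far apart and colon groups overlapped. Plaur, the urokinase receptor, was at 1.66, Igsf23 at 1.11 and the retinol dehydrogenase gene Rdh16 at -1.02, each with an adjusted p of 0.902.

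Differences also moved with the length of a gene. The 13376 protein-coding genes used were ranked by summed exon length and split into 10 bins of equal size. The median shared log2 fold change climbed from -0.20 in the shortest bin to 0.18 in the longest, and the share of genes with a positive value from 22.3% to 82.5%. In colon the medians were -0.33 and 0.26, and in LPMC -0.10 and 0.09. Spearman's rho of length with the difference was 0.426 shared, 0.394 in colon and 0.261 in LPMC, across genes. The gap in mean log2(CPM + 0.1) between the longest and shortest bins was 0.39, 0.10 and 0.33 in colon WT and 0.91, 0.54 and 1.11 in colon KO. It was 1.01, 0.86 and 1.11 in LPMC WT and 1.02, 1.22 and 1.25 in LPMC KO. Colon genotypes did not overlap in it and LPMC genotypes did.

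**Figure D5:**
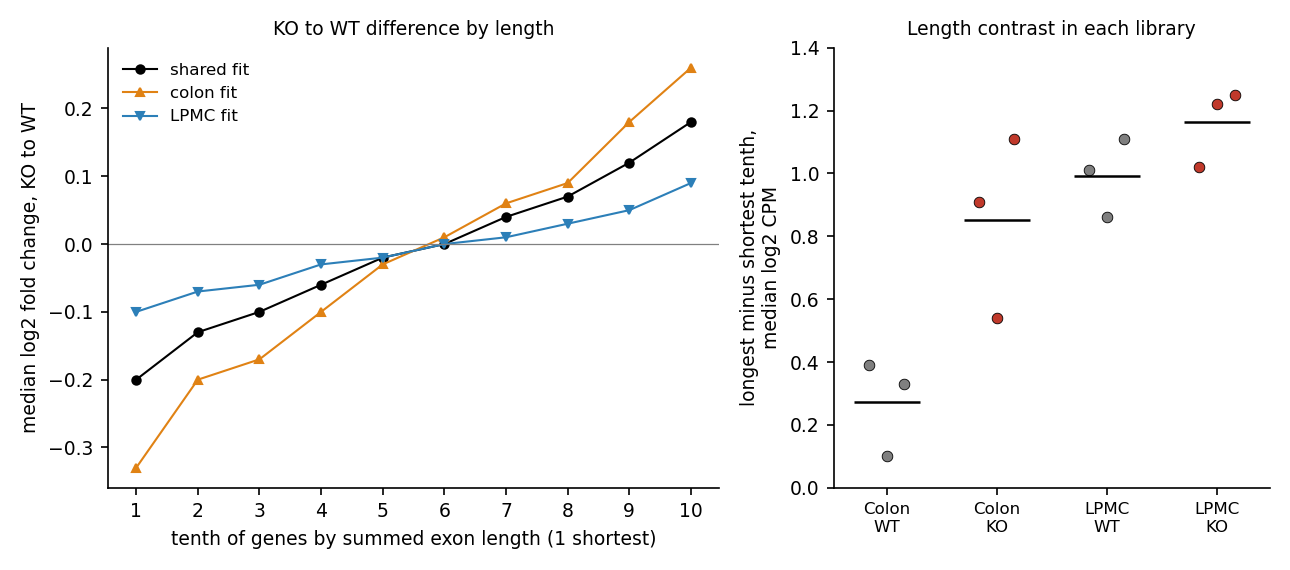
Left, median KO to WT log2 fold change (vertical axis) in each of 10 bins of protein-coding genes by summed exon length, in the shared fit and in each tissue. Right, difference in mean log2(CPM + 0.1), not in the median that its axis label names, between the longest and shortest bins in each library. WT is grey, KO is red and bars are group means. Colon WT lies at 0.10 to 0.39 and colon KO at 0.54 to 1.11.

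Genes without overlap in both tissues followed the same trend. The 65 protein-coding ones that were higher had a median length of 8650 bases, the 65 that were lower 2392 bases, and all 13376 had 4466 bases. When each library's trend with length was removed in an added fit, edgeR again called Gpr15l (-11.77) and Cdhr1 (4.76). Fgfbp3 was then at 1.93 (adjusted p = 0.123), Ide at 0.81 (0.232), Sprr2a3 at -0.93 (0.123) and Prss27 at -0.84 (0.804). Nfkbia went from -0.44 to -0.29, Srrm2 from 0.42 to 0.25, Zfp704 from 0.60 to 0.39, Zfp236 from 0.41 to 0.26 and Oas1a from -0.39 to -0.26. The median of inflammatory cytokines went from -0.41 to -0.26 and that of chemokines from -0.33 to -0.09, while interferon response genes (-0.36), mast cell markers (0.74) and goblet cell genes (0.47) moved less. Genes at an unadjusted p under 0.05 made up 6.06% of those tested, beside 7.79%. What part the length trend plays in the differences of single genes was not tested beyond this fit.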

How the data were processed

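Bulk RNA-seq libraries of colon and LPMC from mice with DSS colitis were prepared with a strand-preserving mRNA kit, per the labels' protocols. The authors deposited raw read counts per gene in 1 table. STAR and the build GRCm38 (mm10) are named, per the submitters' processing notes. For the counting tool, the annotation and the strand setting, the sources used here give nothing, so reads of overlapping genes may be shared. Of 54109 gene identifiers, 54042 matched GENCODE M21, and the rest held at most 0.00333% of a library.

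Counts were tested with edgeR 4.0.16 in R 4.3.3 (quasi-likelihood F test, robust, TMM scaling) in a model of tissue plus genotype over all 12 libraries, after filterByExpr with a minimum count of 10. P-values were adjusted by Benjamini and Hochberg over 20989 genes, with a threshold of 0.05. SE is the log2 fold change divided by the root of F. CPM are TMM-scaled, and list levels are means of log2(CPM + 0.1). The interaction of tissue and genotype and each tissue alone were fitted too. Alternatives were DESeq2 1.42.0, limma 3.58.1 (voom), other filters and scaling, a replicate block and leaving out each library. Added after the data were seen were fits without both KO libraries numbered 2 and with each library's trend on exon length removed.

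Named were the deleted gene and its receptor, called genes, the 10 genes of lowest p in each direction with a mean log2 CPM of 0 or more, up to 10 in each direction without overlap in both tissues, genes within 1 Mb of Gpr15l, up to 4 of each list by p, and up to 6 interaction genes, of which 1 is not reported here. Exceptions are stated where they occur, beside the cell type markers. The members and lists were chosen with earlier results of these data known. In simulated counts for 20989 genes of this design, 100 genes were changed 4-fold and 100 were changed 2-fold. EdgeR found 85 and 51 of them with 5 false calls, and DESeq2 found 94 and 69 with 58 false calls. The changed genes all had a mean log2 CPM above 0. Counts were drawn independently, without a length trend or outlying libraries, so the rates in the real data may differ.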

Additional observations from a re-analysis of the deposited data

Results flagged for a closer look

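Elk4, which encodes an ETS-family transcription factor, was lower in every KO library of colon and higher in every KO library of LPMC. It stood at 80.0, 86.9 and 86.8 CPM in colon WT and 59.7, 68.0 and 63.5 CPM in colon KO. In LPMC it stood at 44.7, 42.2 and 43.1 CPM in WT and 53.0, 48.8 and 58.5 CPM in KO. The difference between the tissues, LPMC minus colon, was 0.71 on the log2 scale, with an unadjusted edgeR interaction p of 8.31e-04 and an adjusted p of 0.902, so it missed the threshold. Such opposite separation was seen in 48 of 20989 genes (0.229%).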

How the results depend on the processing

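The main analysis called 2 genes, 1 higher and 1 lower. Colon alone called 1, with 0 higher, and DESeq2 called 36, with 11 higher and 25 lower. Averaging the tissue differences gave 2 higher genes, adding Fgfbp3. Voom called 2 lower genes, adding a kappa variable segment, and no filter on low counts gave 2, adding Sprr2a3. DESeq2 called 3 interaction genes. With at least 1 CPM in 6 libraries, 72 higher genes were without overlap in both tissues, beside 116. The causes were not tested. In each of the 12 fits without 1 library, Gpr15l (-12.13 to -11.74) and Cdhr1 (4.43 to 4.89) were called.

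Signs changed in these cases. Ccser2 was at -0.04 and Cpeb3 at -0.09 in LPMC alone. With the length trend removed, Ccser2 was at -0.01, Tnks2 at -0.03, March5 at 0.03 and Prss32 at 0.04. Without 1 library, March5 ranged from -0.13 to 0.01 and Prss32 from -0.29 to 0.02. Trac (0.44) and Cd79a (0.49) were positive in LPMC alone and S100a8 (-0.29) negative in colon alone. Cd79a ranged from -3.29 to 0.23 without 1 library. Over 72 genes, 1764 of 1793 alternative values kept direction and side of the threshold.

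With the replicate number as a block, which pairs KO with WT libraries, edgeR called 2 genes (Gpr15l -11.94, Cdhr1 4.70). Voom with a random block of genotype and number called the same 2. KO and WT libraries of one number did not deviate together (1 of 12 correlations over 0.1, median -0.076). Colon and LPMC libraries of one number and genotype did: 6 of 6 correlations were positive and 4 over 0.1 (median 0.149). Different numbers of one genotype had a median of -0.096. Within their genotype, 9 of 12 libraries correlated best with their own number in the other tissue. Yet KO and WT libraries of different numbers had 8 of 24 correlations over 0.1 (median 0.048), and the highest was 0.374. The highest for one number and genotype was 0.303. Whether libraries of one number share animals is not stated in the labels, and these correlations cannot settle it. Because not every pair of one number and genotype was over 0.1, the block stayed an alternative, and the main fit took all libraries as independent. Both blocks kept Gpr15l and Cdhr1, but the kappa segment that plain voom added was not called with the random block.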
